A study of Mus musculus with 8 samples.

Results

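Late granulocytes are the cells of the bone marrow sort that carry Retnlg, the gene for a resistin-like protein of neutrophils, together with S100a8 and S100a9, the genes for the 2 chains of calprotectin. They were chosen by measured UMIs: a cell belongs when it holds at least 5 Retnlg UMIs and at least 30 UMIs of S100a8 and S100a9 summed. The rule takes 802 of 29891 cells (2.68%), and the 3 genes of the rule are given below as description. S100a8 was among the values later tried for outlying pools, which is not read as a result.

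The mice were female C57BL/6 animals of 3 to 4 months, 10 kept specific pathogen free (SPF) and 10 moved for 1 month to a conventional facility and housed with mice born there (CVT). These numbers come from the sample titles, while a figure caption of the paper gives 8 mice per group for this experiment. Marrow of 2 to 3 mice was pooled, which makes 4 SPF pools (1, 2, 7 and 8) and 4 CVT pools (3, 4, 5 and 6). Cells negative for a lineage panel (CD3, CD4, CD8, CD45R, CD11b, TER119 and GR1) and positive for CD117 were sorted and taken through the 10x 3′ v2 chemistry. Animals cannot be told apart within a pool, so the pool is the unit of every test and n is 4 per group.

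Cells were assigned to pools by the last number in their names, matched to the same number in the sample labels. That match is not stated in the sources used here. Pools 1 to 4 hold mice 1 to 10 and pools 5 to 8 hold mice 11 to 20, so each set of mice has 2 SPF and 2 CVT pools. Summed UMIs per pool were 19041749, 43194400, 19814800 and 49911524 in SPF pools 1, 2, 7 and 8, and 57567699, 59812346, 41901551 and 44600182 in CVT pools 3 to 6. The cells per pool numbered 1888, 3845, 2064 and 4534 in SPF and 4845, 4176, 4341 and 4198 in CVT. A barcode was met in more than 1 pool 522 times, which concerns 1048 cells and 27 late granulocytes; these cells were kept. Scrublet, run pool by pool, called 201 cells doublets (0.672%), 10 of them late granulocytes, and no cell was removed.

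The late granulocytes numbered 62, 47, 146 and 125 in SPF pools 1, 2, 7 and 8 and 42, 42, 187 and 151 in CVT pools 3 to 6. Their median depth was 6221 UMIs and 1670 genes with 1.24% mitochondrial UMIs, beside 8964 UMIs, 2587 genes and 2.78% over all cells. Median UMIs per member were 5172.5, 5179, 4807.5 and 8423 in the SPF pools and 8648, 8088.5, 6326 and 6228 in the CVT pools, so SPF pool 8 stood with the CVT pools. It stood with them in genes per member too, at 2158 beside 1181, 1222 and 1003 in the other SPF pools and 2056, 2097.5, 1717 and 1720 in CVT. Hbb-bs, the adult beta globin, split the pools by mouse set: 14.1, 9.25, 959.9 and 990.5 CPM (UMIs of the gene scaled to a common total) in SPF and 15.5, 18.7, 979 and 1753 in CVT.

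Granules of neutrophils are filled in waves during maturation. Myeloperoxidase and the serine proteases of azurophil granules are made first, in promyelocytes. The specific granule proteins lactoferrin, cathelicidin, NGP and lipocalin-2 follow in myelocytes and metamyelocytes, and gelatinase comes last. Receptors for chemokines and formyl peptides appear as cells leave the cycle, and CEBPE is a regulator needed for the specific granules.

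Retnlg stood at 9141, 8633, 18290 and 6391 CPM in the late granulocytes of SPF pools 1, 2, 7 and 8, and at 4816, 4346, 7896 and 6663 in CVT pools 3 to 6. SPF pool 7 was the highest, and the 2 groups overlap because SPF pool 8 lies below CVT pool 5 and CVT pool 6. S100a8 read 163561, 129763, 170481 and 87513 in SPF and 110624, 92079, 113606 and 110312 in CVT. S100a9 read 109083, 84085, 108754 and 56551 in SPF and 72604, 69153, 71685 and 69995 in CVT. The promoter of Retnlg was read from 250 bases before its start to 50 after it, chr16:48872358-48872657 (plus strand, GRCm38.p6 RefSeq); its first 120 bases are shown because the cells are named for the gene. Capitals mark the letters TTGCNNAA, or TTNNGCAA on the other strand, a core of C/EBP sites; 3547 of 32851 promoters (10.8%) hold it, so a match is a description only.
Retnlg: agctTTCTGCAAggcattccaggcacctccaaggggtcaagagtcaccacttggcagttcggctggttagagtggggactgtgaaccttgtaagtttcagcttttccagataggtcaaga
The Retnlg promoter holds 1 match, 246 bases before the start.

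Free RNA can put such UMIs into cells of any kind, and its level was read in 4178 erythroid cells, chosen by Car1 (carbonic anhydrase 1) of at least 5 and Ermap (an erythroblast membrane protein) of at least 1 UMI. Retnlg had at least 1 UMI in 39.5%, 30.5%, 68.9% and 44.7% of the erythroid cells of SPF pools 1, 2, 7 and 8, and in 16.2%, 20.1%, 55.9% and 48.7% of those in CVT pools 3 to 6. At least 5 Retnlg UMIs were met in 1, 0, 0 and 6 erythroid cells of SPF and in 1, 0, 5 and 5 of CVT. At least 30 UMIs of S100a8 and S100a9 were met in 3, 2, 12 and 10 of SPF and in 1, 1, 50 and 41 of CVT, up to 10.7% of a pool. Both parts of the rule were met by 12 of the 4178, at most 0.857% of a pool, and these count as late granulocytes; 108 count as Retnlg-low S100 cells. Around the edges of the rule, 195 cells with enough S100 held 3 or 4 Retnlg UMIs and 63 held 5 or 6, while 817 cells held at least 5 Retnlg UMIs and only 15 of these fell short on S100.

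Identity was read after thinning every cell to 2759 UMIs, the depth of the shallowest member, with the unthinned share in brackets; median depths before thinning were 6221 UMIs in late granulocytes and 17969.5 in the 4030 erythroid cells that fall in no other group, and so hold under 30 S100 UMIs. Ly6g, the GR1 antigen, was seen in 60.1% of late granulocytes (79.2%) and 0.223% of erythroid cells (2.18%). Itgam, which codes for CD11b, was seen in 39.4% (65.2%) and in 0.149% (1.04%). Kit, the CD117 receptor the sort asked for, was seen in 8.85% of late granulocytes (21.3%) against 19.4% of erythroid cells (68.3%). Camp, the cathelicidin of specific granules, was seen in 85.3% (92.8%), and in 21.1% of erythroid cells (72.0%). Mmp8, neutrophil collagenase, was seen in 71.3% (85.0%) and in 0.422% of erythroid cells (2.08%), and Cxcr2, a chemokine receptor of mature neutrophils, in 29.1% (53.2%) and 0.124% (0.596%). Many of the members therefore carry the RNA of Ly6g or Itgam, antigens on the negative side of the sort gate. Surface protein was not measured here.

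The members are a mixture when read by how much of a cell is S100a8 and S100a9 RNA. The 2 genes made 20% or more of the UMIs in 457 late granulocytes and less in 345. By share, 396 stood at 30% or above, 61 from 20% to 30%, 117 from 10% to 20%, 191 from 2% to 10% and 37 under 2%. The 457 cells held a median of 4831 UMIs, 1038 genes and 0.565% mitochondrial UMIs; the 345 held 8662 UMIs, 2377 genes and 2.52%, and all 10 called doublets. Retnlg had medians of 45 and 51 UMIs in the 2 kinds, and mean levels of 9824 and 6097 CPM, as the cells differ in depth. Its level was higher in the 457 cells in 5 of 8 pools, with SPF pool 7 highest at 23323 CPM. This division was chosen after seeing the data, and the S100-rich members alone give a second reading of the comparisons below, printed where it is used.

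**Figure D1:**
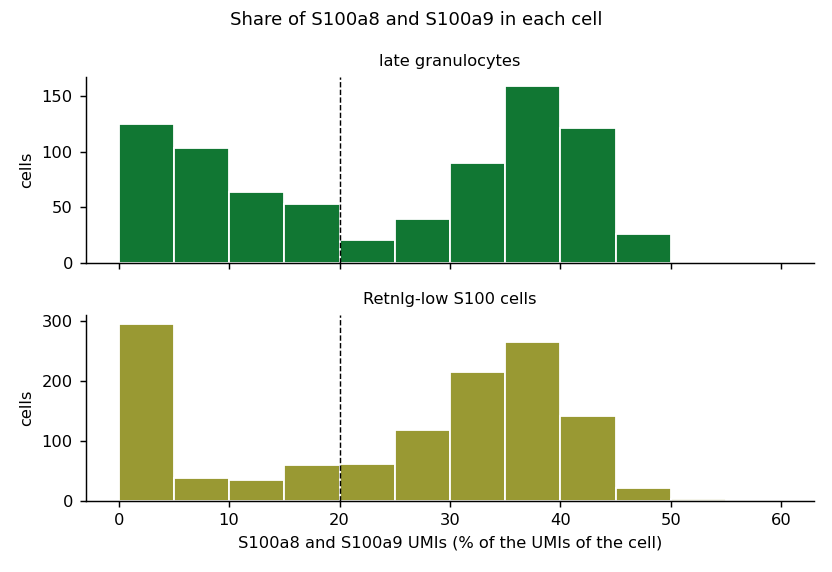
S100a8 and S100a9 as a percentage of a cell's UMIs, in late granulocytes and in Retnlg-low S100 cells, in bins of 5; the dashed line stands at 20%, with 457 of 802 late granulocytes at or above it.

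The kinds of member parted on specific granule genes and on progenitor genes. Camp stood at a mean of 58264 CPM in members with 20% or more S100 and 6421 in the others, Ngp at 46350 and 5140, and Cebpe, a regulator of granule genes, at 551 and 87.2, each higher in the S100-rich members in 8 of 8 pools. Ly6g stood at 876 and 171, and Mmp9, gelatinase B, at 677 and 318. Cxcr2 was nearly level, at 111 and 98.4, and Ccl6, a chemokine of myeloid cells, was at 198 and 449. Kit stood at 10.2 and 53.9, lower in the S100-rich members in all 8 pools, and Cd34, a sialomucin of progenitors, at 10.9 and 113. Thinned, Kit was seen in 2.63% of the S100-rich members (5.69% unthinned) and 17.1% of the others (42.0%), and Cd34 in 3.94% (6.56%) and 24.9% (46.4%). Ly6g was seen in 79.4% (92.3%) and 34.5% (61.7%), and Itgam in 51.6% (77.0%) and 23.2% (49.6%). Gata2, a factor of stem cells and mast cells, stood at 5.39 and 66.8, Apoe, apolipoprotein E, at 207 and 750, and Car1 at 59.5 and 411.

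Markers of other cell types were summed per pool for the same reason. In the order SPF 1, 2, 7 and 8, then CVT 3 to 6, the stem and progenitor list summed to 58.7, 339, 239 and 446 CPM, then 451, 308, 391 and 378, with Cd34 its most abundant gene. Its mean was 64.5 in the S100-rich members and 540 in the others. Monocyte markers summed to 1786, 770.5, 1032 and 1067, then 611, 611, 1000.1 and 778, led by Psap, a lysosomal activator at a mean of 332. Erythroid markers summed to 453, 623, 2296 and 2562, then 1096, 616, 2881 and 4322, led by Hbb-bs. Basophil and mast cell markers summed to 253, 225, 279 and 1120, then 345, 369.6, 376 and 954, led by Hdc, the histamine-making decarboxylase, at 154. Dendritic cell markers summed to 82.1, 1338, 846 and 257, then 1422, 171, 757 and 324, led by the invariant chain Cd74, with Xcr1 at 0 and 10 of 11 genes seen.

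The remaining lists were summed the same way over the genes present in the counts. These were 9 of 11 B cell, 9 of 11 T and NK, 8 of 8 eosinophil and 7 of 8 megakaryocyte genes. All of them had a UMI somewhere among the members. B cell markers summed to 11.7, 18.5, 189.7 and 31.9 in SPF pools 1, 2, 7 and 8 and to 12.95, 37.5, 36.7 and 122 in CVT pools 3 to 6, led by Cd79b, a chain of the B cell receptor. T and NK markers summed to 101, 247, 267 and 397, then 251, 369.6, 317 and 323, led by Nkg7, a granule protein of killer cells. Eosinophil markers summed to 49.3, 89.4, 56.5 and 57.4, then 77.7, 93.7, 39.3 and 38.0, led by Ear2, a ribonuclease. Megakaryocyte markers summed to 11.7, 388, 46.3 and 263, then 117, 32.1, 146 and 207, led by Pf4, platelet factor 4.

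Housing was compared first in the number of late granulocytes. They made 3.28%, 1.22%, 7.07% and 2.76% of the cells of SPF pools 1, 2, 7 and 8, and 0.867%, 1.01%, 4.31% and 3.597% of those of CVT pools 3 to 6. SPF pool 7 was highest and CVT pool 3 lowest, and the groups overlap. The means were 3.58% ± 2.49 and 2.44% ± 1.77 (SD, n = 4), a difference of −1.14 points with an exact permutation p of 0.543 (adjusted 0.6 over 3 shares by Benjamini-Hochberg). Within mice 1 to 10 the means were 2.25% in SPF and 0.936% in CVT, and within mice 11 to 20 they were 4.92% and 3.95%. Among S100-rich members the difference was −1.28 points. Removing cells with under 1000 genes or over 10% mitochondrial UMIs, which takes out 196 late granulocytes by the first limit and 4 by the second, left −0.426 points. Without SPF pool 7 the difference turned to 0.0233 points.

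**Figure D2:**
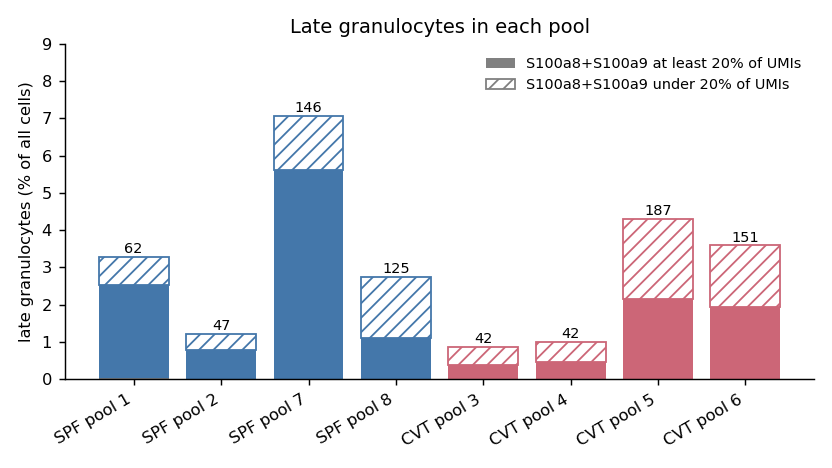
Late granulocytes as a percentage of all cells in each pool, divided into members with S100a8 and S100a9 at 20% or more of their UMIs (solid) and under 20% (hatched), with cell counts of 42 to 187 above the bars.

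The wider class of cells with 30 or more UMIs of S100a8 and S100a9 gave a like picture. It made 7.84%, 3.46%, 14.8% and 6.86% of the SPF pools and 3.12%, 2.68%, 10.4% and 10.6% of the CVT pools, means 8.25% ± 4.77 and 6.70% ± 4.396 (SD, n = 4). The difference was −1.54 points (exact permutation p 0.6, adjusted 0.6), with −2.75 in mice 1 to 10 and −0.337 in mice 11 to 20. It was 0.650 without SPF pool 7 and −0.584 after the same removal of cells. Late granulocytes made 41.9%, 35.3%, 47.7% and 40.2% of these S100-high cells in SPF and 27.8%, 37.5%, 41.3% and 34.0% in CVT. The means were 41.3% ± 5.11 and 35.2% ± 5.72, a difference of −6.13 points (exact permutation p 0.171, adjusted 0.514), with −5.96 and −6.31 within the 2 sets of mice and −2.97 after that removal. With S100 also at 20% or more of the UMIs, the differences of these 2 shares were −1.88 and −10.03 points (exact permutation p 0.429 and 0.171). With 4 pools a side the smallest exact p is 0.0286, and no share passed.

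The make-up of the members differed by pool as well. Members with under 20% of S100 UMIs were 22.6%, 36.2%, 20.5% and 60.0% in SPF pools 1, 2, 7 and 8, and 54.8%, 54.8%, 49.7% and 46.4% in CVT pools 3 to 6. SPF pool 8 was the highest of all, and the other SPF pools lay below every CVT pool. The means were 34.8% and 51.4%; no test was made on this division, as it was chosen after seeing the data. Comparisons of housing below pool both kinds of member, so the share of each kind is given here beside them, and its part in the results was not tested.

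Among 5083 genes tested between the housing groups, edgeR's quasi-likelihood test with Benjamini-Hochberg adjustment called 0 higher in CVT (0%) and 0 lower (0%). At unadjusted p under 0.05, 142 genes (2.79%) were higher and 310 (6.10%) lower, and pools did not overlap at all for 97 genes (1.91%) higher and 86 (1.69%) lower. DESeq2 also called 0 and 0 (95 and 251 unadjusted). A term for the set of mice left 0 and 0 (133 and 285 unadjusted), and the S100-rich members alone gave 0 and 0 of 2402 genes. Leaving out SPF pool 8 gave 35 higher and 163 lower of 3953, and skipping the filter on low counts gave 5 and 25 of 14005. The median log2 fold change over all tested genes was −0.0017.

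The 5 genes of each direction with the smallest unadjusted p among those without overlap are named, none past adjustment (adjusted p 0.551 by edgeR's quasi-likelihood test with Benjamini-Hochberg). Without SPF pool 8 all but Tia1 pass (Mrgpra2b at adjusted p 0.00911, Clec4a3 at 0.0125), and Mrgpra2b, Clec4a3 and Ctss pass without the low-count filter. Myo1g, a myosin of blood cell membranes, read 42.2, 30.8, 31.6 and 34.3 CPM in SPF pools 1, 2, 7 and 8 and 15.5, 13.4, 18.7 and 17.1 in CVT pools 3 to 6 (log2 fold change −1.13, unadjusted p 0.000381). Mrgpra2b, a Mas-related receptor, read 153, 145, 147 and 103, then 75.1, 56.2, 76.0 and 89.9 (−0.98, 0.000521). Clec4a3, a lectin of myeloid cells, had a log2 fold change of −1.28 (p 0.000525), Ctss, a lysosomal protease, −1.22 (p 0.000724), and Hacd2, an enzyme of fatty acid elongation, −0.87 (p 0.00179). Towards CVT stood Lap3, an aminopeptidase, at 1.05 (p 0.00177), and Tia1, an RNA-binding protein of stress granules, at 0.67 (p 0.00243). Nhp2, a part of small nucleolar particles, was at 0.57 (p 0.00267), Cpsf6, a factor of RNA cleavage, at 0.74 (p 0.00325) and Zfos1, named as the opposite strand of a zinc finger gene, at 0.69 (p 0.00336). In S100-rich members Zfos1 turned to −0.20, Mrgpra2b read −0.50 and Hacd2 −0.45. Ctss read −1.66 there (unadjusted p 0.000952 by edgeR's quasi-likelihood test), Myo1g −1.02, Tia1 0.76 and Nhp2 0.81. Of 11 monocyte markers 0 passed adjustment and 6 were lower unadjusted, beside 6.10% of all genes, at a median of −0.73. Their part in the result was not tested.

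Lists of granule genes are given beside that make-up. Gelatinase and late granule genes summed to 16137, 13178, 17851 and 9070.2 CPM in SPF and 10088, 8982, 11093 and 11004 in CVT, so SPF pools 1, 2 and 7 lay above every CVT pool and SPF pool 8 below 3 of them. Of 24 tested, 0 passed adjustment and 16 were lower at unadjusted p under 0.05, beside 6.10% of all genes lower and 2.79% higher, with a median log2 fold change of −0.62. In S100-rich members 0 of 23 passed and 9 were lower unadjusted, at −0.42, where 79 of all 2402 genes were higher and 89 lower unadjusted. Specific granule genes had 8 of 16 lower unadjusted and a median of −0.51, or 1 of 17 and −0.12 in S100-rich members. Azurophil granule genes summed to 2725, 2333, 3341 and 9488 in SPF and 3922, 8476, 5314 and 6915 in CVT, with 0 of 13 higher and 1 lower unadjusted and a median of 0.36, or 1 of 10 higher, 0 lower and 0.56 in S100-rich members. Mmp8 stood at a log2 fold change of −0.76 (unadjusted p 0.0104) and Mmp9 at −0.81 (unadjusted p 0.0072), and in S100-rich members at −0.45 and −0.59. Within S100-rich members the gelatinase sums averaged 19486 CPM in SPF and 16896 in CVT, and within the others 7160 and 5892, with pools overlapping. Specific granule sums averaged 160804 and 165332 in S100-rich members and 28414 and 22591 in the others. Azurophil sums averaged 1694 and 2476, then 7065 and 8587. The share of S100-poor members ran alongside, and its part in these differences was not tested.

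**Figure D3:**
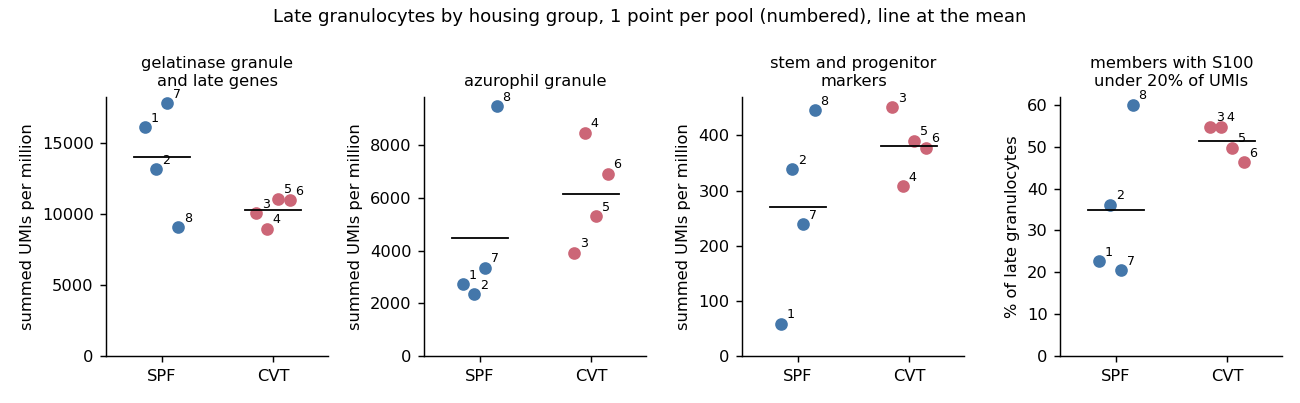
Summed gelatinase, azurophil and stem and progenitor genes in late granulocytes and the percentage of members under 20% S100, by pool; gelatinase sums average 14059 in SPF and 10292 in CVT.

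Late granulocytes were next set against the S100-high cells that hold 0 to 4 Retnlg UMIs, 1256 cells with a median of 9493 UMIs, pool by pool. They numbered 86, 86, 160 and 186 in SPF pools 1, 2, 7 and 8 and 109, 70, 266 and 293 in CVT pools 3 to 6, and include the 195 cells just short of the rule. They are a mixture too: 828 hold 20% or more S100 and 428 hold less, of which 273 lie under 2% at a median depth of 21263 UMIs. The S100-poor ones had median S100 sums of 69, 1166, 36 and 134.5 UMIs in SPF and 982, 196, 36 and 41 in CVT, against the 30 the rule asks for. Of 6275 genes tested, edgeR's quasi-likelihood test with Benjamini-Hochberg adjustment called 1171 higher in late granulocytes (18.7%) and 861 lower (13.7%). With only cells of 20% or more S100 on both sides, 563 of 3173 were higher (17.7%) and 413 lower (13%). Genes called higher both ways numbered 467, which is 39.9% of the list from all cells and 82.9% of the other; only 686 of the 1171 were tested among S100-rich cells. The lower ones shared 297, 34.5% and 71.9%, with 568 of the 861 tested. The median log2 fold change over all genes was 0.0021, and −0.0206 among S100-rich cells.

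Gelatinase and late granule genes rose, with 22 of 24 higher and 0 lower, at a median of 1.83, and 19 of 20 higher among S100-rich cells at 1.32. Mmp8 read 1176, 878, 1274 and 593 CPM in late granulocytes of SPF pools 1, 2, 7 and 8 and 609, 584, 708 and 721 in CVT pools 3 to 6. In Retnlg-low S100 cells Mmp8 averaged 66.1 ± 26.9 (SD, n = 8) and reached at most 114 in any pool, so no pools overlap. It rose by a log2 fold change of 3.78 (SE 0.16, adjusted p 4.48e-11 by edgeR's quasi-likelihood test with Benjamini-Hochberg), and by 3.49 among S100-rich cells. Mmp9 read 582, 635, 851 and 374 in SPF and 365, 313, 439.5 and 442 in CVT against a mean of 77.3 ± 23.0, again without overlap, and rose by 2.78 (adjusted p 4.17e-10). The promoter of Mmp8 at chr9:7558179-7558478 (plus strand) holds 1 match to the C/EBP letters, 19 bases before the start. The promoter of Mmp9 was not matched in the table of promoters and was not read.

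Genes of receptors and adhesion rose too, 28 of 36 higher and 1 lower with a median of 1.03, and 26 of 32 higher among S100-rich cells at 0.81. Cxcr2 read 127, 102, 161 and 89.2 CPM in SPF pools 1, 2, 7 and 8 and 82.9, 77.7, 101 and 96.1 in CVT pools 3 to 6, while Retnlg-low S100 cells averaged 16.8 ± 6.79 (SD, n = 8) and reached 32.8. Every pool of late granulocytes lay above that, and Cxcr2 rose by 2.86 in log2 fold change (adjusted p 9.25e-09 by edgeR's quasi-likelihood test with Benjamini-Hochberg). Csf3r, the receptor of the growth factor G-CSF, rose by 1.70, Fpr1, a formyl peptide receptor, by 3.37, and Fpr2, its relative, by 1.31. Fpr1 could be tested only through the late granulocytes, so only a call of higher was possible for it. Ly6g averaged 518 in late granulocytes and 288 in the others, higher in 8 of 8 pools, and rose by 0.90 (adjusted p 0.000176). Itgam rose by 0.75 (adjusted p 0.00109), but stood at 0.20 (adjusted p 0.119) with the rule set per 10000 UMIs.

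Calls on the specific granule genes depended on the cells compared: 0 of 17 were higher and 4 lower with a median of 0.08, and 4 were higher and 6 lower among S100-rich cells at 0.12. Camp read 42598, 28628, 33278 and 21731 CPM in SPF pools 1, 2, 7 and 8 and 32104, 29538, 28049 and 26781 in CVT pools 3 to 6, against 40726 ± 7535 (SD, n = 8) in Retnlg-low S100 cells. It was lower in 8 of 8 pools but did not pass (log2 fold change −0.34, adjusted p 0.0784 by edgeR's quasi-likelihood test with Benjamini-Hochberg), while it fell by 0.24 among S100-rich cells (adjusted p 0.00137), and passed as lower at −0.71 after thinning and −0.89 with the rule set per 10000 UMIs. Ngp, the neutrophilic granule protein, read 39899, 23913, 29103 and 16953 in SPF and 27145, 21394, 19983 and 19492 in CVT, and stood at −0.27 (adjusted p 0.210), but passed as lower at −0.57 after thinning and −0.77 per 10000 UMIs. Ltf, lactoferrin, stood at 0.20 (adjusted p 0.276), and passed in both directions: higher at 0.23 among S100-rich cells (adjusted p 0.00563) and lower at −0.26 per 10000 UMIs (adjusted p 0.0262). Lcn2, lipocalin-2, stood at 0.02 (adjusted p 0.951) and passed as lower at −0.46 per 10000 UMIs (adjusted p 0.000426). Chil3, a chitinase-like protein of neutrophil precursors, fell by 0.77 (adjusted p 0.00122), and Fcnb, ficolin B, fell by 1.33.

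Promoters of Ngp and Ltf are shown, 120 bases around a match in each, as specific granule genes whose call depended on the cells compared. Ngp lies at chr9:110419558-110419857 (plus strand) with 2 matches, 138 (shown) and 11 bases before the start, and Ltf at chr9:111019042-111019341 (plus strand) with 1 match, 75 bases before the start.
Ngp: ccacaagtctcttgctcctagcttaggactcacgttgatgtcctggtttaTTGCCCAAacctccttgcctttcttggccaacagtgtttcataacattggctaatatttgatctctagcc
Ltf: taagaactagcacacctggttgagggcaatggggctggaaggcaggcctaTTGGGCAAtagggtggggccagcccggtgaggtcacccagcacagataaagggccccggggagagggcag
Lcn2 holds 1 match at 216 bases and Ly6g 1 at 232, and the promoters of Camp, Cxcr2, Elane, Mpo and Prtn3 hold 0.

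**Figure D4:**
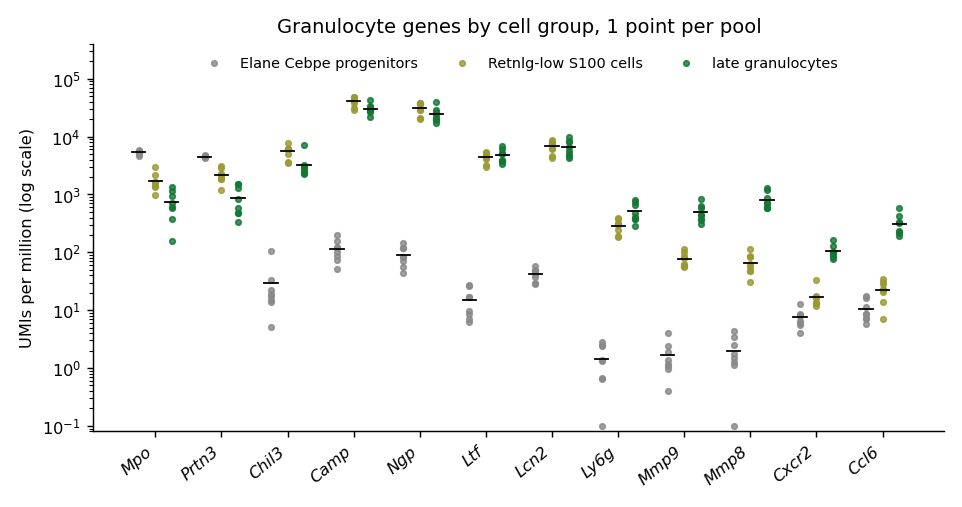
Granule and receptor genes in Elane Cebpe progenitors, Retnlg-low S100 cells and late granulocytes, a point per pool on a log scale with values of 0 drawn at 0.1; Mmp8 averages 1.98, 66.1 and 818 CPM.

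Azurophil granule genes fell when all cells were compared, 9 of 13 lower and 1 higher at a median of −1.19, and did not among S100-rich cells, with 1 of 11 lower and 1 higher at −0.13. Elane, neutrophil elastase, read 763, 108, 575 and 2637 CPM in SPF pools 1, 2, 7 and 8 and 523, 2622, 1318 and 1889 in CVT pools 3 to 6, against 5044 ± 1505 (SD, n = 8) in Retnlg-low S100 cells. It fell by 2.18 in log2 fold change (SE 0.38, adjusted p 0.000348 by edgeR's quasi-likelihood test with Benjamini-Hochberg) and stood at −0.32 (adjusted p 0.518) among S100-rich cells. Mpo, myeloperoxidase, read 157, 376, 574 and 1322 in SPF and 604, 1168, 707 and 960.5 in CVT, and fell by 1.24 (adjusted p 0.000806), or stood at 0.17 among S100-rich cells. Prtn3, proteinase 3, fell by 1.35, and stood at −0.15 among S100-rich cells. Ms4a3, a membrane protein of granulocyte precursors, fell both ways, at −1.61 and −0.61. Thinned, Elane was seen in 32.5% of late granulocytes (52.1% unthinned) and 22.2% of erythroid cells (71.3%), and Mpo in 32.4% (53.7%) and 27.0% (77.4%). Markers of progenitors differ with the S100-poor members on each side; their part in the result was not tested.

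Cell cycle genes fell in either reading, 26 of 31 proliferation genes lower and 0 higher at a median of −0.78, and 24 of 30 lower among S100-rich cells at −0.80. Mki67, the Ki-67 antigen, read 70.4, 18.5, 56.5 and 93.2 CPM in SPF pools 1, 2, 7 and 8 and 59.6, 64.3, 79.3 and 89.1 in CVT pools 3 to 6, all below the lowest pool of Retnlg-low S100 cells at 116. It fell by 0.91 in log2 fold change (adjusted p 0.000263 by edgeR's quasi-likelihood test with Benjamini-Hochberg), and stood at −0.72 among S100-rich cells. Birc5, survivin, fell by 1.12, Ube2c, a ubiquitin-conjugating enzyme of mitosis, fell by 1.04, and Rrm2, a chain of ribonucleotide reductase, fell by 1.23. Cebpe, the regulator of specific granules, fell by 0.70 (adjusted p 0.0028) and stood at −0.45 among S100-rich cells. Thinned, Mki67 was seen in 10.6% of late granulocytes (23.4% unthinned) and 25.4% of Retnlg-low S100 cells (53.9%), whose median depths were 6221 and 9493 UMIs.

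Genes with the largest rise came from several families. Gm5483, a stefin A family gene whose relatives are near copies, averaged 110.4 CPM in late granulocytes and 1.996 in Retnlg-low S100 cells. It stood at 0 in the Retnlg-low S100 cells of SPF pool 2 and CVT pools 3 and 4. It could be tested only through the late granulocytes, so only a call of higher was possible for it. Ccl6 read 422, 219, 574 and 332 in SPF pools 1, 2, 7 and 8 and 189, 230.3, 322 and 225 in CVT pools 3 to 6. Retnlg-low S100 cells averaged 22.6 ± 8.99 (SD, n = 8), without overlap. Ccl6 rose by 3.99 in log2 fold change, or 3.93 among S100-rich cells. S100a6, a calcium-binding relative of the rule genes, rose by 2.59 and Ifi27l2a, an interferon-responsive gene, by 2.92. Slc7a11, the cystine exchanger, rose by 2.92 and Wfdc17, a small protein of myeloid cells, by 2.82. Cd74 rose by 3.34 (SE 0.54), yet its pools ran from 18.7 to 640 and dendritic markers as a list rose with it, 4 of 4; their part in the result was not tested.

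Other gene lists are given beside the 18.7% higher and 13.7% lower of all tested genes, or 17.7% and 13% among S100-rich cells. Transcription factors had 17 of 24 higher and 2 lower at a median of 0.84, and 8 of 15 higher and 1 lower at 0.35 among S100-rich cells; Mxd1, a repressor of MYC targets, stood at 1.94 and Gfi1, a factor of granulocyte precursors, at −1.37. Interferon genes had 13 of 13 higher at 1.78, and 5 of 6 at 0.79 among S100-rich cells, with Ifitm3, a membrane protein of antiviral defence, up by 1.38. Cytokine and feedback genes had 7 of 9 higher at 1.82, and 3 of 5 at 1.06. Il1b, interleukin-1 beta, averaged 42.5 CPM against 4.68 in Retnlg-low S100 cells, whose pools ran from 1.33 to 9.84. It could be tested only through the late granulocytes, so only a call of higher was possible for it. Immediate early and heat shock genes had 10 of 16 higher at 1.03, and 8 of 13 higher and 1 lower at 1.12. S100 genes outside the rule had 5 of 6 higher and 1 lower at 1.02, and 2 of 5 higher at 0.23. Genes of the NADPH oxidase had 2 of 7 higher and 1 lower at 0.18, and 4 of 7 higher and 1 lower at 0.21, and genes of microbial sensing 3 of 9 higher at 0.26, and 0 of 4 at 0.22.

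Marker lists of other cell types are given beside these calls, and some of them rose. Monocyte markers had 12 of 12 higher at a median of 1.55, stem and progenitor markers 5 of 6 at 1.25, basophil and mast cell markers 3 of 3 at 2.92, and dendritic cell markers 4 of 4 at 1.61. Megakaryocyte markers had 2 of 2 higher at 1.42, erythroid markers 0 of 10 higher and 2 lower at −0.65, and T and NK markers 1 of 1 lower, Nkg7 at −1.11. B cell markers had 1 gene tested and 0 called, and eosinophil markers the same. Among S100-rich cells 0 stem and 0 megakaryocyte markers were tested, 2 of 2 monocyte markers were higher and 0 of 6 erythroid markers were called. There the basophil and mast cell list had 1 of 1 higher (0.97), the dendritic list 1 of 1 higher (2.47) and the T and NK list 1 of 1 lower (−0.36). Cd34 rose by 1.28 (adjusted p 6.61e-05 by edgeR's quasi-likelihood test with Benjamini-Hochberg) in 7 of 8 pools, and Kit stood at 0.34 (adjusted p 0.142). Without SPF pool 1, Kit passed as higher at 0.43 (adjusted p 0.0404 by the same test). In Retnlg-low S100 cells the basophil and mast cell list summed to a mean of 107 CPM, with Hdc at 78.8. Markers low in those cells could be tested only through the late granulocytes, so only a call of higher was possible for them. The part of these markers in the results was not tested.

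**Figure D5:**
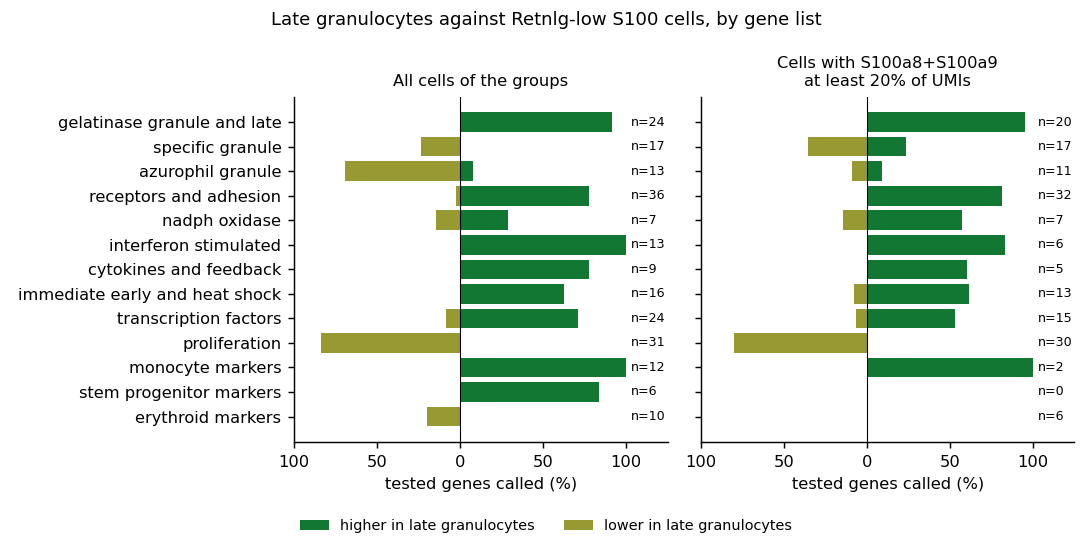
Percentage of the tested genes of each list called higher or lower in late granulocytes than in Retnlg-low S100 cells, from all cells (left) and from cells with 20% or more S100 (right); proliferation genes are lower for 26 of 31 and 24 of 30.

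The last comparison took progenitors with at least 5 Elane and 1 Cebpe UMIs and under 30 S100 UMIs, 1709 cells with a median of 16634 UMIs, so their depth exceeds that of late granulocytes. They numbered 59, 171, 68 and 208 in SPF pools 1, 2, 7 and 8 and 368, 396, 195 and 244 in CVT pools 3 to 6. Of 7217 genes tested, edgeR's quasi-likelihood test with Benjamini-Hochberg adjustment called 2209 higher in late granulocytes (30.6%) and 2166 lower (30%), with a median log2 fold change of −0.0284. The S100-rich members gave 1931 of 5649 higher (34.2%) and 2188 lower (38.7%), with 1592 higher genes in both readings (72.1% and 82.4% of the lists) and 1790 lower (82.6% and 81.8%). Thinning both sides left 3863 genes tested, 1141 higher and 1232 lower. Elane and Cebpe define the progenitors and the S100 genes divide the groups, so these are not read as results here. Other azurophil granule genes, such as Mpo and Prtn3, share a list with Elane. How far the choice by Elane sets their difference was not tested.

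Some late genes lay near 0 in the progenitors, such as Mmp8 at 0 to 4.32 CPM, Mmp9 at 0.396 to 3.97 and Ly6g at 0 to 2.77. They could be tested only through the late granulocytes, so for them only a call of higher was possible. Gelatinase and late granule genes had 23 of 23 higher at a median of 5.87, specific granule genes 16 of 17 higher at 5.95, and azurophil granule genes 10 of 12 lower and 1 higher at −1.84. In S100-rich members the same lists had 21 of 21 higher at 6.20, 16 of 17 higher at 7.25, and 10 of 12 lower and 1 higher at −2.37. Erythroid markers had 9 of 9 higher at 2.04, monocyte markers 7 of 11 with 1 lower, and stem markers 4 of 8 with 1 lower. Dendritic markers had 3 of 5 higher and 1 lower, and megakaryocyte markers 2 of 2 higher. B cell and T and NK markers had 1 of 1 lower each. In S100-rich members erythroid markers had 4 of 6 higher, monocyte markers 2 of 8 with 4 lower, and stem markers 0 of 5 with 4 lower. Markers low in the progenitors could be tested only through the late granulocytes, so only a call of higher was possible for them. The part of these markers was not tested. Mmp8 averaged 818 CPM in late granulocytes and 1.98 in progenitors, and Ly6g averaged 518 in late granulocytes. Camp rose by 8.60 in log2 fold change and Ngp by 8.61, with every pool of late granulocytes above every pool of progenitors. Mpo read 157 to 1322 over the pools of late granulocytes and 4715 to 5829 over those of progenitors. It fell by 2.56 (adjusted p 1.37e-10 by edgeR's quasi-likelihood test with Benjamini-Hochberg), and stood at −4.05 in S100-rich members. Prtn3 fell by 2.07 and stood at −3.04 in S100-rich members. Calr, calreticulin of the endoplasmic reticulum, fell by 1.93 and Sdf2l1, a chaperone partner of the same compartment, fell by 1.91, and they stood at −3.33 and −3.604 in S100-rich members. Kit stood at −0.08 (adjusted p 0.627) over all members and fell by 1.28 in S100-rich members (adjusted p 2.17e-05), and Cd34 fell by 0.86 (adjusted p 0.000118) and stood at −2.68 in S100-rich members. NADPH oxidase genes had 7 of 7 higher in both readings, at 2.32 and 3.58. Proliferation genes had 7 of 31 higher and 13 lower at −0.04 over all members, and 17 of 31 higher and 10 lower at 0.56 in S100-rich members, so this list depended on the members compared.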

How the data were processed

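The deposited table gives a UMI count for every cell and gene, 29891 cells by 27998 genes and 335844251 UMIs, and 0 of its columns went unused. Per the submitters' processing notes, reads were counted with Cell Ranger against mm9; the version is not given in the sources used here. Counts of the authors were summed per pool and cell group and scaled to a common total (CPM). Tests ran in edgeR 4.0.16 with R 4.3.3 (filterByExpr, TMM, quasi-likelihood, a term for pool when groups share pools), DESeq2 1.42.0 was the alternative, and shares were tested by exact permutation over 70 regroupings. Cells were handled with Python 3.11.15, pandas 2.3.3 and scanpy 1.11.5.

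Thinning took every cell to 2759 UMIs. Gene lists numbered 21 and 331 of their 338 genes are in the table; the members and lists were chosen with earlier results of these data known. Named genes are a list fixed beforehand. To it were added the 5 smallest unadjusted p per direction without overlap for housing, and the 10 largest changes per direction for each cell comparison, with the same direction in 8 of 8 pools and a mean of at least 100 CPM. Promoters run from 250 bases before to 50 after the RefSeq start in GRCm38.p6, with 11 of 12 genes matched.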

Additional observations from a re-analysis of the deposited data

Results flagged for a closer look

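In 132 groups of 4 pools each value was tried by Dixon's test, and 16 values were singled out; chance alone gives about 1 in 20 groups. In SPF pool 8 they were the median depth of late granulocytes (8423 UMIs), Prtn3 (1543 CPM), Mrgpra2b (103), the azurophil granule sum (9488) and the basophil and mast cell marker sum (1120). SPF pool 1 stood apart in Chil3 (7071), Cebpe (528) and Ctss (293), and SPF pool 7 in the sum of B cell markers (189.7).

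Among CVT pools, pool 3 stood apart in Ltf (5192), Csf3r (95.9) and Nhp2 (150.3), and pool 4 in Lap3 (42.8). Pool 6 stood apart in Cd34 (71.3) and the basophil and mast cell marker sum (954). The remaining value was S100a8 in CVT pool 4 (92079), a gene of the rule, and it is not read as a result. A test for housing effects that differ between the sets of mice called 0 genes by edgeR's quasi-likelihood test, with 57 higher and 76 lower unadjusted. The cause of these values was not tested.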

How the results depend on the processing

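Leaving out a pool at a time moved the difference in the late granulocyte share from −1.93 to 0.0233 points, that of the S100-high share from −3.14 to 0.650, and that of late granulocytes among S100-high cells from −8.18 to −3.69. Removing cells with over 10% mitochondrial UMIs or under 1000 genes gave −0.426, −0.584 and −2.97. At 20% S100 they were −1.28, −1.88 and −10.03. Housing calls ran from 0 to 35 higher and 0 to 163 lower over the same omissions, and were 5 and 25 without the low-count filter.

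Against Retnlg-low S100 cells, 1171 genes were higher and 861 lower of 6275 tested (18.7% and 13.7%). Cells of 20% or more S100 gave 563 and 413 of 3173 (17.7% and 13%), and thinning gave 423 and 357 of 2699 (15.7% and 13.2%). Without the low-count filter 1448 of 15258 were higher (9.49%) and 1456 lower (9.54%). Against progenitors thinning gave 1141 and 1232 of 3863. The readings at 20% S100 were chosen after seeing the data.

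Camp and Ngp, uncalled against Retnlg-low S100 cells, were called lower at 10 or more Retnlg UMIs (−0.63 and −0.53), at 20% S100 (−0.24 and −0.19), thinned (−0.71 and −0.57), unfiltered (−0.45 and −0.37) and per 10000 UMIs (−0.89 and −0.77). Direction changed in several genes. For housing, Zfos1 read −0.20 at 20% S100. Against Retnlg-low S100 cells, Ltf read −0.039 at 10 or more Retnlg UMIs, −0.084 thinned and −0.26 per 10000 UMIs, and Lcn2 −0.19, −0.27 and −0.46. Lyz2 read −0.16 per 10000 UMIs, and Wfdc21 −0.038 thinned and −0.19 per 10000. At 20% S100, Mpo read 0.17, Ctsg 0.039 and Mt1 0.10, and Hbb-bs read 0.45 thinned. Against progenitors Kit read 0.13 thinned and −1.28 at 20% S100, and Hspa1a ran from −0.22 to 0.23 with a pool left out. The cause was not tested.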

Other observations

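Late granulocytes were also laid out by their Retnlg UMIs: 123 cells with 5 to 9, 139 with 10 to 24 and 540 with 25 or more. The bands are set on Retnlg, a gene of the rule, and hold as few as 8, 7 and 21 cells in a pool. Camp, Ltf and Lcn2 went down along them. Camp averaged 56304, 36455 and 22293 CPM over the pools, Ltf 8056, 6003 and 3625, and Lcn2 10483, 7787 and 5245, each lower in the highest band than in the lowest in 8 of 8 pools. Cebpe went from 494 to 390 and 234, also in 8 of 8 pools.

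Late genes divided. Wfdc21, a small secreted protein, averaged 6499, 4664 and 3774 and Ly6g 824, 647 and 412, each lower in the highest band in 7 of 8 pools. Mmp8 averaged 483, 556 and 977 with the highest band above the lowest in 7 of 8 pools, Cxcr2 46.8, 70.01 and 128 in 7, and Ccl6 103, 206 and 392 in 8. Kit went up as well, at 15.8, 25.5 and 42.5 in 8 of 8 pools, and Cd34 at 21.0, 39.8 and 81.8 in 7. The median share of S100a8 and S100a9 was 34.5%, 29.6% and 25.2% in the bands, and median depth was 6053, 6187 and 6352 UMIs. No test was made on the bands. Against Elane Cebpe progenitors, 72 of 77 ribosomal protein genes were lower in late granulocytes, at a median log2 fold change of −0.51, beside 2166 of all 7217 genes (30%) and a median of −0.0284. Against Retnlg-low S100 cells 2 of 77 were higher and 2 lower, at a median of 0.02, beside 18.7% and 13.7% of all genes. Among S100-rich cells 3 of 77 were higher and 17 lower, at a median of −0.13, beside 17.7% and 13% of all genes. Between the housing groups 0 of 77 were called and 8 were higher unadjusted, at a median of 0.34, beside 2.79% of all genes higher unadjusted. In S100-rich members 8 of 77 were higher unadjusted, at a median of 0.21, beside 79 of all 2402 genes.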
